A study of Mus musculus with 6 samples.

Results

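The class I major histocompatibility complex (MHC) antigen presentation pathway was followed through 9 of its genes in coronal mouse brain sections. For each of them the change in aged vs. adult was higher in the white matter than in the mean of 5 other regions. The ventricular system, the reticular thalamic nucleus and the meninges were not part of that comparison. Of these differences, 4 were lost when single sections were left out. In the ventricular system, which was not tested, Tap1 and Tap2 rose by a larger ratio than in the white matter and the other genes by a smaller one. The genes were chosen by symbol, as B2m, H2-D1, H2-K1, Tap1, Tap2, Tapbp, Nlrc5, Psmb8 and Psmb9. Each was found once among the 19465 genes of the probe panel in all 6 count matrices. Formalin-fixed, paraffin-embedded (FFPE) brain sections came from untreated male C57BL/6J mice at postnatal day 21 (P21), in adults of 12 to 15 weeks and in aged animals of 28 months, with 2 sections per age labelled as biological replicates. All mice were wild type. Per the labels, P21 mice were bred in house and the older ages were bought from separate suppliers, while the methods of the study name 1 supplier for all. Spatial transcriptomes were measured on Visium slides, where each spot covers a small patch of tissue with several cells, so that a level is that of a patch and not of a cell type. Fewer cells of a type and less RNA per cell cannot be told apart in such data.

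Class I molecules display peptides from inside the cell to CD8 T cells and to natural killer cells. Peptides are cut by the proteasome, which in immune or interferon-exposed cells carries the inducible subunits encoded by Psmb8 and Psmb9. The peptides are pumped into the endoplasmic reticulum by the transporter of Tap1 and Tap2, and Tapbp encodes tapasin, which holds the empty class I molecule at that transporter. The class I heavy chains H2-D1 and H2-K1 pair with beta-2-microglobulin, the product of B2m, and Nlrc5 encodes the transactivator that drives transcription of the pathway. In the healthy brain the pathway is known to be low in most neurons and glia and higher in vessels and immune cells.

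In GENCODE vM21 on GRCm38, 7 of the 9 genes lie together in the MHC region of chromosome 17. Tapbp is at 33915899 to 33929292, H2-K1 at 33996017 to 34000347, Psmb9 at 34181987 to 34187764, Tap1 at 34187553 to 34197225, Psmb8 at 34197721 to 34201454, Tap2 at 34203527 to 34216321 and H2-D1 at 35262730 to 35267499. B2m is on chromosome 2 at 122147686 to 122153083 and Nlrc5 on chromosome 8 at 94434356 to 94527272. Psmb9 and Tap1 run in opposite directions and overlap by their 5′ ends. H2-D1 and H2-K1 are close in sequence, and how far a probe of one could bind transcripts of the other was not tested.

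Promoters are shown because these genes are known to share upstream elements and because several of them moved together below. Of the 9 genes, 7 had an entry in the RefSeq promoter table for GRCm38.p6. The printed stretches are the 200 bases before the annotated start, 5′ to 3′ on the gene's strand. Capitals mark matches, on either strand, to the letters GAAANNGAAA (a pair of interferon response half-sites), TGACG (the half-site of the X2 box, a cyclic AMP response element), CCAAT (the CCAAT box, ATTGG when inverted, which forms the Y box) and GGGGATTCCCC (the NF-kB site of class I enhancers). B2m lies at chr2:122147487-122147686 (plus strand), H2-D1 at chr17:35262894-35263093 (plus strand), H2-K1 at chr17:34000348-34000547 (minus strand, the first of 2 entries) and Tap1 at chr17:34187356-34187555 (plus strand).
B2m: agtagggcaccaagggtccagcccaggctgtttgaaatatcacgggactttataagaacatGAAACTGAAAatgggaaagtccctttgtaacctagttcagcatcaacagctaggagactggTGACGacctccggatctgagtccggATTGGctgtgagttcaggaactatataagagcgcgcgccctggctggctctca
H2-D1: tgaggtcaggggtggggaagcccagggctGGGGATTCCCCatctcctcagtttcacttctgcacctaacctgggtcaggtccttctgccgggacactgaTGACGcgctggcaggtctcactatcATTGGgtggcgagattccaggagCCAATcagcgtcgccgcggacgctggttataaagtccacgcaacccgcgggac
H2-K1: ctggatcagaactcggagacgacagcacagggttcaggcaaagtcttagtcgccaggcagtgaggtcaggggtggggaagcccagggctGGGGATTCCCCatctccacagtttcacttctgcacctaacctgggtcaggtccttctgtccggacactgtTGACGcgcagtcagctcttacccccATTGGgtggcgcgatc
Tap1: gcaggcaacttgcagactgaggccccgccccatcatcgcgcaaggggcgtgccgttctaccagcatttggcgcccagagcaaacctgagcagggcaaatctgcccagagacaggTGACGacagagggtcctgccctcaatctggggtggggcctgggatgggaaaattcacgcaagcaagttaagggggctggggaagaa

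In B2m, H2-D1 and H2-K1 the TGACG half-site was followed by an inverted CCAAT box after the same gap of 20 bases, an arrangement noticed in these sequences and then counted. It was present in 30 of 32851 promoters (0.0913%). Within the 250 bases before the start, TGACG was found in 5 of the 7 genes and in 17.8% of all promoters, and the CCAAT box in 6 of the 7 and in 33.8% of all. The 11-letter NF-kB site was found in H2-D1 and H2-K1 and in 0.0304% of all promoters. GAAANNGAAA was found in B2m alone among the 7, and in 2.98% of all promoters. Only these exact letters were searched, so other forms of an interferon response site in the printed stretches are not marked or counted. Psmb9 carried the TGACG half-site that it shares with the facing Tap1 promoter, Tapbp carried 2 CCAAT boxes, and Psmb8 matched none of these letters in this window. Tap2 and Nlrc5 are named only. Matches are letters in a window and not measured sites.

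After removal of 12 spots the sections held 20336 spots, 42422997 to 106783660 UMIs (unique molecular identifiers, 1 per counted molecule) each and a median of 12074.5 to 25535 UMIs per spot. Spots were grouped by expression and named by fixed marker panels as cortex (CTX, 4496 spots), hippocampus (HP, 1950), thalamus (TH, 3316), hypothalamus (HY, 3457), striatum (STR, 1141), fiber tracts (FT, 2209), reticular thalamic nucleus (RT, 233), ventricular system (VS, 209) and meninges with large vessels (1084), and 2241 spots were not named. The 9 genes and the gene lists used below were kept out of the grouping, except the 8 oligodendrocyte genes, which are the panel that named the FT. By the study's methods the aged sections were made differently, on glass slides with a later version of the chemistry, and their spot barcodes shared none with those of the younger sections. Age and method therefore cannot be told apart in aged vs. adult. P21 and adult sections share 1 method, but by the labels the source of the mice differed between the ages. Age and that source cannot be told apart in either comparison.

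Both aged sections showed sharper marker panels than all younger sections in the FT, HP, TH, STR and VS, but not in the CTX, HY, RT or meninges. The FT marker panel stood above the rest of the section by 2.05 to 2.31 on the log2 scale in the P21 and adult sections and by 3.06 to 3.20 in the aged sections. In the same way Ttr, a choroid plexus transcript, had 27.9% to 50.2% of its UMIs outside the VS at the 2 younger ages, against 10.4% and 5.82% at the oldest, whereas Mobp, a myelin transcript of the FT panel, had 59.4% to 70.6% outside the FT at the younger ages and 59.0% and 65.9% at the oldest. Values of region markers are therefore given beside the region contrast below. FT spots had median UMIs of 10960 and 12933.5 in the aged sections, against 11313.5 to 25779 in the younger sections.

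**Figure D1:**
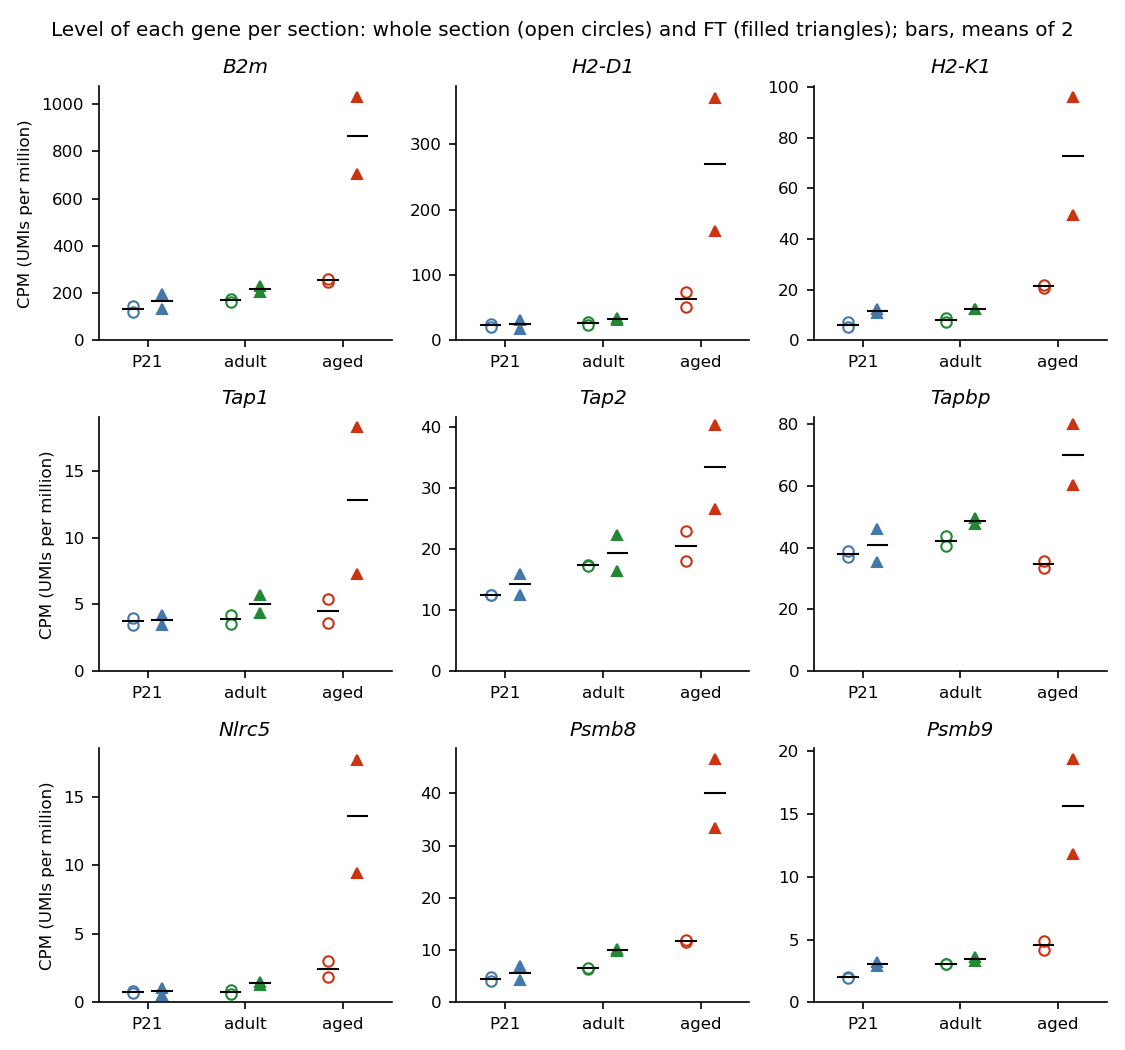
Level of each of the 9 genes in every section, in CPM, for the whole section (open circles) and the FT (filled triangles), by age, with the mean of the 2 sections as a bar. The aged FT values lie above all others in every panel, and aged section 2 is the higher of the pair. For Tap1 the lower aged FT value is 7.28 CPM, beside 5.69 in an adult FT. For Tap2 it is 26.6 CPM, beside 22.9 in a whole aged section.

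Over whole sections, the heavy chains, the transactivator and 1 inducible proteasome subunit were higher with age, while neither transporter gene passed the test. CPM are the UMIs of a gene per 1000000 UMIs of the section or region named. Calls needed both an adjusted p below 0.05 and a change of more than 1.5-fold (edgeR's quasi-likelihood test, Benjamini-Hochberg over 18104 genes). In aged vs. adult, H2-D1, H2-K1, Nlrc5 and Psmb8 were called higher, 4 of 9, and none was called lower. Of all genes tested, 23.8% were called higher and 4.68% lower. The median log2 fold change of the 9 genes was 0.48, beside 0.04 for all genes.

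H2-K1, a classical heavy chain, measured 7.21 and 5.19 CPM at P21, then 8.97 and 7.18 in adult and 20.68 and 21.998 in aged sections. Both aged sections lay above all younger ones, a log2 fold change of 1.29 ± 0.15 (SE, edgeR adjusted p = 5.55e-05). H2-D1, the other heavy chain, had 25.2 and 20.6 CPM at P21, with 28.5 and 24.2 for adult and 51.1 and 74.2 for aged sections, a log2 fold change of 1.14 ± 0.14 (SE, edgeR adjusted p = 0.000102). The aged values did not overlap the others. Nlrc5 was low at all ages, with 0.799 and 0.707 CPM at P21, 0.914 and 0.644 for adults and 1.87 and 2.997 for the aged, from 30 to 320 UMIs per section. Its log2 fold change of 1.54 ± 0.27 (SE, edgeR adjusted p = 0.000619) was the highest of the 9 over the whole section.

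Psmb8, the inducible subunit that replaces Psmb5, had 4.94 and 4.13 CPM at P21, which compares with 6.44 and 6.67 for adults and 11.6 and 11.9 for aged sections, with a log2 fold change of 0.73 ± 0.12 (SE, edgeR adjusted p = 0.000435). The 3 ages did not overlap. B2m was the most abundant of the 9, with 145 and 118 CPM at P21, then 174 and 165 for adult and 247 and 261 for aged sections. Its ages did not overlap either, and the log2 fold change of 0.48 ± 0.09 (SE, edgeR adjusted p = 0.000783) stayed under the fold threshold. Psmb9, the inducible partner of Psmb6, was at 4.21 and 4.85 CPM in the aged sections and 3.07 and 3.03 in the adults, also under the fold threshold (0.47 ± 0.14 SE, edgeR adjusted p = 0.0159).

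Tap1, at 3.50 to 5.41 CPM over all 6 sections, overlapped between adult and aged sections. Tap2, at 17.4 and 17.2 CPM in adult and 18.0 and 22.9 in aged sections, did not overlap but did not pass the test (0.13 ± 0.10 SE, edgeR adjusted p = 0.296). Tapbp went the other way, from 43.8 and 40.4 CPM in adults to 33.5 and 35.7 in the aged sections. Its log2 fold change of -0.39 ± 0.07 (SE, edgeR adjusted p = 0.000536) was under the fold threshold. In 7 of the 9 genes both aged sections lay above both adult sections, as they did in 39.5% of genes of at least 0.5 CPM.

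Fewer differences passed between the younger ages, in a comparison that shares its adult sections with the one above. In P21 vs. adult, 1 of the 9 genes was called, Psmb9, which was lower, with 2.05 and 1.93 CPM at P21 against 3.07 and 3.03 in adults (log2 fold change -0.61 ± 0.16 SE, edgeR adjusted p = 0.0155), while 2.37% of all genes were called lower and 5.69% higher. All 9 log2 fold changes were below 0, between -0.61 and -0.04. B2m (-0.37, adjusted p = 0.0105), Psmb8 (-0.52, adjusted p = 0.0110) and Tap2 (-0.48, adjusted p = 0.00801) also passed the adjusted p by edgeR but not the fold. The call for Psmb9 was lost when any 1 of the 4 P21 and adult sections was left out. Without P21 section 1, H2-K1 and Psmb8 were called lower in its place. By region, 1 of 52 tests was called, a lower Tap2 in the HP (-0.73, edgeR adjusted p = 0.0126), where 1.65% of all genes were called lower. None of the 9 genes was called in the CTX, TH, HY, STR or FT, where 2.13%, 2.77%, 1.73%, 1.11% and 3.93% of all genes were lower. In the HY and STR 8 of them were tested. An unadjusted p under 0.05 was reached by 1 gene in the FT and by 2 in each of the other 4 regions. B2m passed the adjusted p by edgeR but not the fold in the TH (-0.43, adjusted p = 0.00617) and STR (-0.38, adjusted p = 0.0352).

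At all ages the pathway was unevenly spread over the brain. In adult sections the meninges with large vessels held the highest mean level of B2m (393 ± 12.9 CPM, SD, n = 2), H2-D1 (77.1 ± 6.59), H2-K1 (28.8 ± 7.22), Tap1 (10.0 ± 1.16), Tap2 (49.2 ± 3.07), Psmb8 (21.9 ± 4.87), Psmb9 (13.5 ± 1.38) and, with a wide spread, Nlrc5 (1.91 ± 1.77). Tapbp was highest in the VS (110 ± 33.8 CPM), which did not differ from the meninges (104 ± 9.57) beyond its spread. The VS holds choroid plexus and ependyma and had only 13 to 66 spots per section, so its values are given without a test. The FT followed with 217 ± 17.4 CPM of B2m, near the VS at 229 ± 19.995, and the CTX, HP, HY, RT, TH and STR lay between 140 and 168 CPM.

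In aged sections this order changed. The FT led for B2m (867 ± 232 CPM, SD, n = 2), H2-D1 (269 ± 144), Nlrc5 (13.6 ± 5.85), Psmb8 (40.01 ± 9.29) and Psmb9 (15.6 ± 5.35), and aged section 2 was the higher for each. The VS led for H2-K1 (91.9 ± 9.98 CPM), Tap1 (22.7 ± 2.63), Tap2 (77.1 ± 0.190) and Tapbp (130 ± 14.9). For B2m the FT sections (703 and 1031 CPM) lay above the VS sections (625 and 666), while for H2-D1, H2-K1, Nlrc5, Psmb8 and Psmb9 the means of these zones differed by less than the larger of their SDs. The meninges held 402 and 384 CPM of B2m in adults and 431 and 489 in the aged. The CTX was the lowest zone in the aged sections for all 9 genes except Tap2, for which the TH was lowest.

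**Figure D2:**
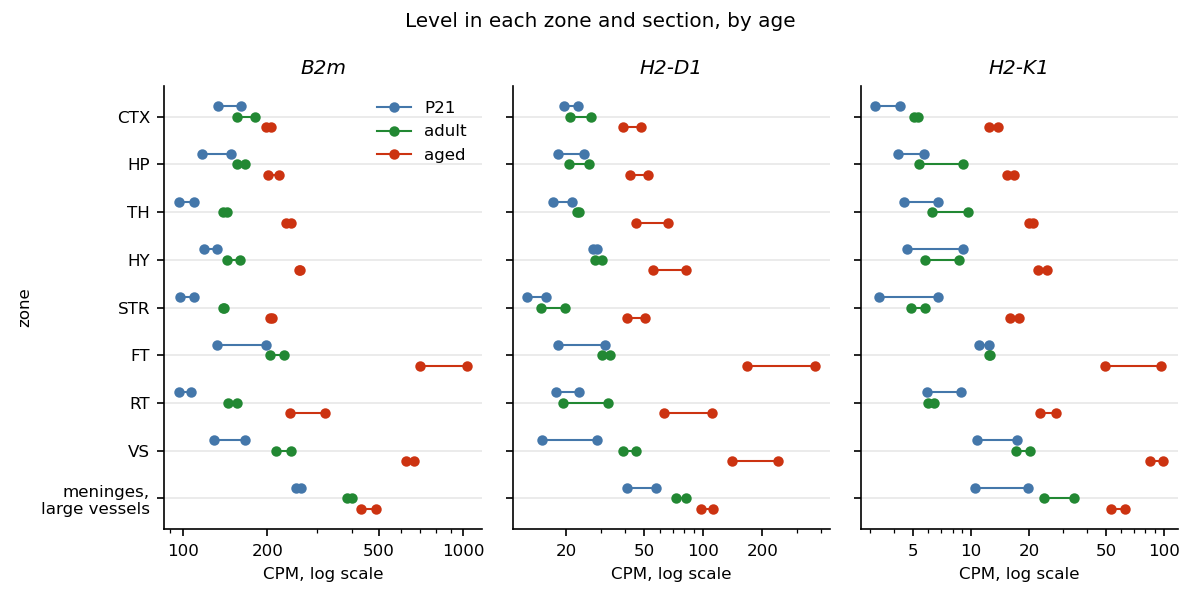
Level of B2m, H2-D1 and H2-K1 in each zone and section (CPM on a log axis), coloured by age, with the 2 sections of an age joined by a line. For B2m and H2-D1 the meninges stand highest in the P21 and adult sections, whereas in the aged sections the FT and the VS lie above them for all 3 genes but for H2-K1 in 1 FT section.

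In the FT, 8 of the 9 genes were called higher in aged vs. adult, while 18.3% of all genes tested there were. The median log2 fold change of the 9 was 2.01, beside 0.03 for all genes of the FT. In all 9 genes both aged sections lay above both adult ones, as they did in 43.2% of genes of at least 0.5 CPM in the FT. They also lay above both P21 sections in all 9. The heavy chains, the light chain, the transactivator and the inducible proteasome subunits rose by 3.97 (Psmb8) to 9.82 times (Nlrc5) in mean CPM, and Tap1, Tap2 and Tapbp had ratios of 2.53, 1.72 and 1.44.

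H2-D1 in the FT stood at 31.5 and 18.1 CPM for P21, 33.5 and 30.5 for adult and 167 and 371 for aged sections, a log2 fold change of 3.08 ± 0.26 (SE, edgeR adjusted p = 5.67e-08). The aged sections differed 2.22-fold from each other and both lay far above the rest. H2-K1 stood at 12.4 and 10.9 CPM for P21, 12.5 and 12.3 for adult and 49.6 and 95.9 for aged sections (2.56 ± 0.23 SE, edgeR adjusted p = 1.05e-07). B2m stood at 198 and 132 CPM for P21, 205 and 229 for adult and 703 and 1031 for aged sections (2.01 ± 0.16 SE, edgeR adjusted p = 1.98e-08). In each of these genes the highest younger section lay well below the lower aged one.

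Nlrc5 in the FT stood at 1.08 and 0.533 CPM for P21, 1.47 and 1.30 for adult and 9.44 and 17.7 for aged sections. It rested on 2 to 9 UMIs in the younger sections and 48 and 97 in the aged ones (3.295 ± 0.37 SE, edgeR adjusted p = 1.31e-06). Psmb8 went from 9.93 and 10.2 CPM in adults to 33.4 and 46.6 (2.001 ± 0.19 SE), and Psmb9 from 3.26 and 3.57 to 11.8 and 19.4 (2.201 ± 0.28 SE). Both inducible subunits were called. The 3 constitutive subunits that inducible ones replace were not called at either of these scales. Psmb10, the inducible counterpart of Psmb7, is not among the 9 genes. Its FT values, given further below, overlapped between adult and aged sections. Psmb5 was at 101 and 102 CPM in adult and 126 and 99.9 in aged FT. Psmb6 was at 120 and 136, then 115 and 123, and Psmb7 at 211 and 230, then 175 and 185. They gave 0 of 3 in the FT and 0 of 3 over the whole section, and Psmb5 alone of the 3 was called higher in the HP. Of all genes, 18.3% passed as higher and 12.2% as lower in the FT. Over the whole section 23.8% and 4.68% did, and 6.08% passed as higher in the HP.

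Tap1 in the FT was at 4.40 and 5.69 CPM in adults and 7.28 and 18.3 in aged sections, a log2 fold change of 1.36 ± 0.33 (SE, edgeR adjusted p = 0.00255). Without aged section 2 it was 0.54 and not called (adjusted p = 0.211). Tap2 was at 16.4 and 22.3 CPM in adults and 26.6 and 40.2 in aged sections (0.80 ± 0.19 SE, edgeR adjusted p = 0.00191), and it was not called without aged section 2 (0.46) or without adult section 1 (0.58). Tapbp was at 49.7 and 47.4 CPM in adults and 60.2 and 79.8 in aged sections (0.54 ± 0.13 SE, edgeR adjusted p = 0.00235), under the fold threshold. Tapbp was called without aged section 1. The other 6 genes were called without any 1 of the 4 adult and aged sections.

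**Figure D3:**
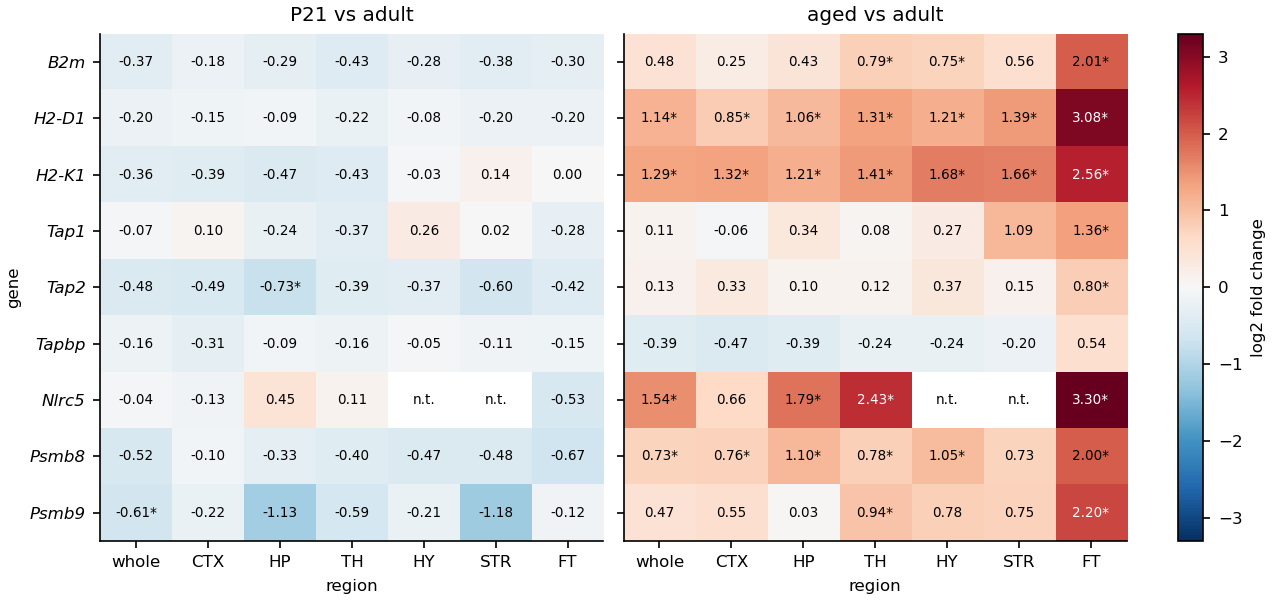
Log2 fold change of each gene (rows) over the whole section and in 6 regions (columns), P21 vs. adult on the left and aged vs. adult on the right, with a star where the gene was called and n.t. where it was not tested. The FT column of aged vs. adult holds the highest value of every gene, from 0.54 for Tapbp to 3.295 for Nlrc5.

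The other 5 regions gave smaller values. H2-D1 and H2-K1 were called higher in all of them, H2-D1 by 0.85 (CTX), 1.06 (HP), 1.31 (TH), 1.21 (HY) and 1.39 (STR) and H2-K1 by 1.32, 1.21, 1.41, 1.68 and 1.66 on the log2 scale in the same order. Psmb8 was called in the CTX (0.76), HP (1.10), TH (0.78) and HY (1.05), B2m in the TH (0.79) and HY (0.75), Nlrc5 in the HP (1.79) and TH (2.43) and Psmb9 in the TH (0.94). The counts were 3 of 9 in the CTX, 4 of 9 in the HP, 6 of 9 in the TH, 4 of 8 in the HY and 2 of 8 in the STR, where 7.93%, 6.08%, 7.59%, 6.66% and 8.27% of all genes were called higher. Nlrc5 had too few UMIs to be tested in the HY and STR. Tap1, Tap2 and Tapbp were called in none of these 5 regions, and Tapbp was below 0 in all 5, from -0.47 in the CTX (edgeR adjusted p = 0.00220, under the fold threshold) to -0.20 in the STR.

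The age difference in the FT was set against that in the other regions within the same sections, by an edgeR model with each section as a block. The log2 change in the FT minus the mean over the other 5 regions was above 0 at an adjusted p under 0.05 for all 9 genes, as for 13.1% of 15051 genes. It was 1.81 ± 0.18 for H2-D1 (SE, edgeR adjusted p = 8.18e-09), 1.67 ± 0.54 for Nlrc5, 1.53 ± 0.31 for Psmb9, 1.39 ± 0.12 for B2m (edgeR adjusted p = 1.16e-09), 1.06 ± 0.21 for Psmb8, 1.03 ± 0.26 for H2-K1, 0.93 ± 0.33 for Tap1, 0.79 ± 0.14 for Tapbp and 0.52 ± 0.17 for Tap2. For Nlrc5 the mean over the other regions includes the HY and STR, where it had too few UMIs for a test of its own. Its level was 0 CPM in 1 adult STR section. The calls for H2-K1, Nlrc5, Tap1 and Tap2 were lost without adult section 1, where H2-K1 was at 0.92 and the other 3 at 0.52, 0.52 and 0.31. They were also lost without aged section 2, at 0.50, 1.59, 0.47 and 0.30. Nlrc5 further lost its call without adult section 2 (1.64, adjusted p = 0.0953) and Tap1 without either P21 section (0.93, adjusted p = 0.0547 and 0.0560). The call for B2m, H2-D1, Psmb8, Psmb9 and Tapbp was kept without any 1 of the 6 sections.

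Region markers moved in the same contrast. All 8 oligodendrocyte genes passed, with a median of 0.66 and a range of 0.54 to 1.05. They were used to name the FT and so give no independent reading of it. H2-K1, Tap1, Tapbp and Tap2 lay within or below that range. Psmb8 lay just above it, at 1.06, and H2-D1, Nlrc5, Psmb9 and B2m farther above. Homeostatic microglia genes passed for 12 of 12 (median 1.03), activated microglia genes for 8 of 8 (1.77) and reactive astrocyte genes for 3 of 3 (2.28), while 0 of 9 endothelial genes passed. Of the further class I pathway genes, 10 of 25 passed above 0 and 2 below (median 0.12). Above 0 passed 6 of 10 class II, 6 of 22 interferon-induced, 2 of 8 T and NK cell and 4 of 5 astrocyte genes. Of interferons and their receptors, 2 of 8 passed above 0 and 1 below. None passed of the class I receptors, B cell, border macrophage and mural genes. Among all genes, 13.1% passed above 0. The 3 constitutive proteasome genes passed below 0 (median -0.33), as did 20.2% of all genes, and 2 of 4 erythrocyte genes passed above 0 (median 0.83). All 5 pan-neuronal genes were below 0, with a median of -0.79. The part of the sharper panels of aged sections in these differences was not tested. A general test for any difference in the age effect among the 6 regions was passed by 6 of 9 genes in aged vs. adult (38.9% of all genes) and by 1, B2m, when the FT was left out (19.5% of all genes). In P21 vs. adult it was passed by 0 of 9 (9.71% of all genes), with no gene at an unadjusted p under 0.05, and the FT contrast also by 0 of 9 (4.03% of all genes in either direction).

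Within sections, the FT was set against the other regions over all ages. The log2 ratio of the FT level over the mean of the other 5 regions was above 0 in all 6 sections for B2m, H2-K1, Tap1, Tap2, Tapbp, Psmb8 and Psmb9, as for 21.4% of genes. The exact two-sided sign-flip permutation p of each was 0.0312, the smallest that 6 sections allow, and 0.0562 when adjusted over 14336 genes, so that none passed. H2-D1 and Nlrc5 were below 0 in 1 section, P21 section 2. For B2m the ratio was 0.58 and 0.23 for P21, 0.40 and 0.61 for adult and 1.65 and 2.1996 for aged sections, and for H2-K1 it was 0.84 and 1.27, 0.74 and 0.92, then 1.44 and 2.33. With interior spots alone, 3 genes, H2-K1, Tap2 and Tapbp, were above 0 in all sections.

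The aged signal was spread through the tract and was near the far level within 2 spots of it. In aged sections B2m was at 857 and 1314 CPM in FT core spots, whose neighbours were all FT, at 570 and 881 in FT edge spots, at 324 and 335 in spots of other regions 1 step away and at 218 and 197 at 2 steps. Farther spots, 4 or more steps away, held 212 and 216 CPM, close to the value at 2 steps. In adult sections the same series ran from 203 and 223 CPM in the core to 156 and 176 at 1 step and 166 and 148 far away, a far smaller step. H2-D1 fell from 200 and 478 CPM in the aged core to 62.3 and 100 at 1 step and 41.8 and 55.4 far away, against 31.1 and 28.4 in the adult core and 25.9 and 22.7 far away. The FT marker panel, which defined the tract, fell at a similar distance, from 58040 and 57946 CPM in the aged core to 17184 and 15309 at 1 step.

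**Figure D4:**
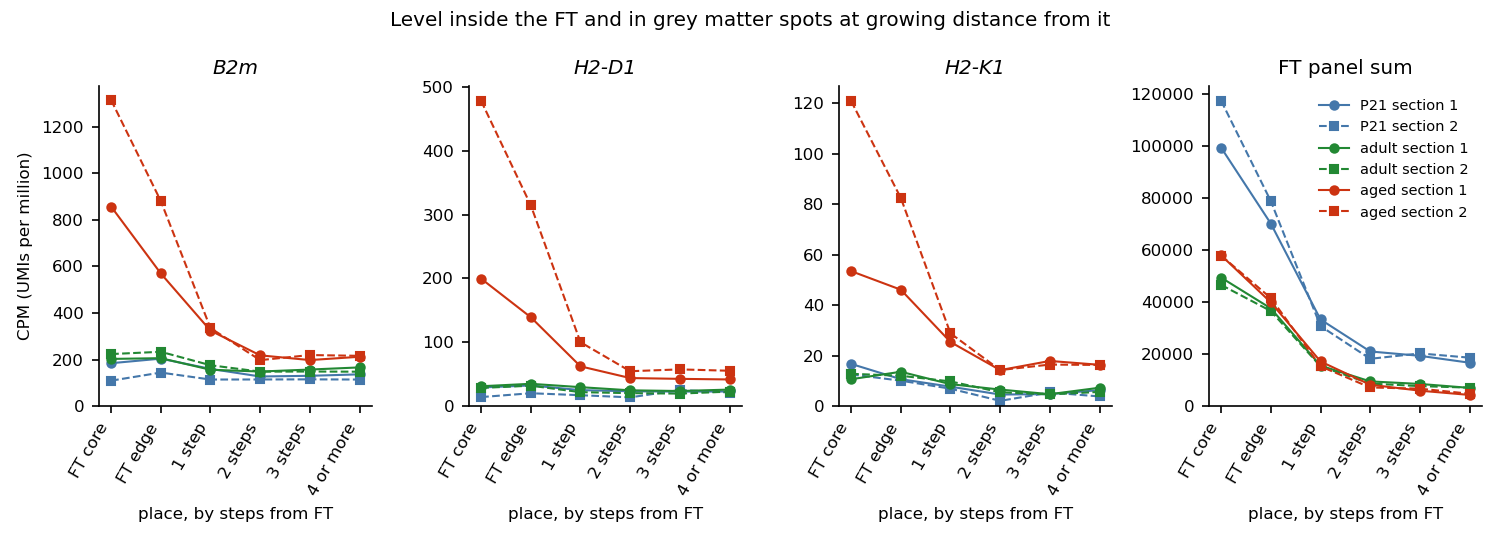
Level of B2m, H2-D1, H2-K1 and the summed FT marker panel (CPM) in FT core spots, FT edge spots and spots of the other 5 regions by steps from the FT, 1 line per section. Levels of the 3 genes drop to the far level by 2 steps in the aged sections and span a smaller range in the younger ones, while the panel drops in all sections.

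The rise was also seen spot by spot. B2m had a median of 189 and 219 CPM per FT spot for adult and 656 and 976 for aged sections. The 10th percentile of aged FT spots was 234 and 449 CPM, above the adult medians. In the CTX the spot medians were 171 and 149 CPM in adult and 178 and 193 in aged sections. The share of a section's H2-D1 UMIs that lay in the FT went from 13.8% and 15.1% in adults to 20.3% and 25.6% in aged sections, while the share of all UMIs there went from 11.7% and 12.0% to 6.20% and 5.13%. Both aged sections were also above both adult ones in this share for B2m, Nlrc5 and Psmb9, so for 4 of 9 genes beside 2.46% of all genes. H2-K1, Tap1 and Psmb8 overlapped between the ages. Tap2 went from 11.04% and 15.6% to 9.16% and 8.998% and Tapbp from 13.3% and 14.1% to 11.1% and 11.5%. In both genes the aged sections lay below the adult ones, as they did in 12416 of 14336 genes.

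The FT was made up of 3 clusters, numbered 8, 10 and 11, and cluster 11 held most aged FT spots but 2 to 28 spots of each younger section. Cluster 11 was led by Klk6, Nkx2-9, Hapln2 and Apod, cluster 8 by genes that include Cyp2j12, Cldn11 and Mobp and cluster 10 by Thbs4 and Opalin. For B2m and H2-D1 the rise was present in the clusters that all ages share. In cluster 8, B2m was at 206 and 222 CPM in adult and 530 and 744 in aged sections, and H2-D1 at 30.0 and 28.4, then 116 and 248.5. In cluster 10, B2m was at 204 and 227 CPM, then 475 and 763. In cluster 11 the aged sections reached 883 and 1252 CPM of B2m.

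Moran's I, a deposited score of how far neighbouring spots resemble each other, was given for each section and uses no region names. For B2m it was 0.105 and 0.0922 in adult and 0.334 and 0.506 in aged sections, for H2-D1 0.0253 and 0.0294, then 0.236 and 0.423, and for H2-K1 0.0420 and 0.0129, then 0.0879 and 0.184. B2m stood at the 94.6 and 97.7 percentile of genes in the aged sections and at the 88.7 and 88.0 percentile in the adult ones. Nlrc5 was near 0 in the adult sections, at 0.0118 and -0.00504, and at 0.0332 and 0.0779 in the aged. All 9 genes had higher scores in both aged sections than in both adult sections, as had 67.3% of genes scored in these 4 sections. In percentile among genes 8 of the 9 did so, beside 34.9% of genes, and Tapbp overlapped, at 75.9 and 68.7 for adult and 70.3 and 77.3 for aged sections. Median UMIs per spot were highest in aged section 2, and the part of depth in this score was not tested.

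Other genes of the class I pathway were counted as a list. Of 27 further pathway genes in the panel, 7 were called higher and 1 lower over the whole section in aged vs. adult, near the 23.8% and 4.68% of all genes, and 12 of 24 tested were called higher and 0 lower in the FT, where 18.3% and 12.2% of all genes were, with a median log2 fold change of 0.52 there. The largest whole-section changes were those of H2-M2 (3.45), H2-Q10 (2.26) and H2-Q6 (1.74), all class I-like heavy chains, whose near copies in the genome make the assignment of single probes uncertain. H2-Q6 in the FT went from 1.30 and 1.62 CPM in adults to 13.8 and 19.7. Psme1, a subunit of the PA28 proteasome activator, went from 37.0 and 36.6 to 74.2 and 90.2 CPM in the FT, whereas its partner Psme2 was at 9.93 and 8.94, then 10.2 and 7.67. Psmb10, the remaining inducible proteasome subunit, was at 39.7 and 37.2 CPM in adult and 34.8 and 45.1 in aged FT, and calreticulin (Calr), a chaperone of class I folding, at 230 and 241, then 194 and 195. At P21, 1 of the 27 was called higher (H2-Q2, 1.34) and 3 lower, beside 5.69% and 2.37% of all genes. H2-Q6 (-1.12) and H2-T22 (-0.90) were the largest of those lower.

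MHC class II genes, which present peptides from outside the cell to CD4 T cells, were called higher for 8 of 9 tested in the aged FT and for 2 of 10, Ciita (2.06) and H2-Oa (1.27), over the whole section, beside 18.3% and 23.8% of all genes. In the FT the aged sections differed far more than for class I, with a list sum of 95.6 CPM in section 1 and 460 in section 2, against 55.8 and 59.8 in adults. Cd74, the invariant chain, was at 29.5 and 260 CPM in the aged FT and 14.7 and 16.6 in the adult. At P21, H2-Aa (-1.45) and H2-Eb1 (-1.33) were called lower over the whole section.

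Interferons are the known inducers of these genes. Interferon-induced genes were called higher for 15 of 21 tested in the aged FT, beside 18.3% of all genes, with a median log2 fold change of 1.07. Over the whole section 7 of 22 were called higher and 1 lower, beside 23.8% and 4.68% of all genes. The largest changes there were those of Ifi27l2a (1.11), Lgals3bp (1.09) and Oas1a (1.01). The list sum in the FT was 262 and 250 CPM in adult and 466 and 601 in aged sections, but P21 section 1 also reached 350. In the FT at P21, 5 of 21 were called higher and 3 lower (median log2 fold change 0.49), beside 757 and 542 of 13804 genes. At P21, 3 were called higher and 3 lower over the whole section, beside 5.69% and 2.37% of all genes. The largest of these were Usp18 (1.27), Xaf1 (-1.25) and Rsad2 (0.99). Of interferons, their receptors and signalling kinases, 1 of 9 was called higher over the aged whole section and 3 of 8 in the FT. Of all genes, 23.8% and 18.3% were called higher at these scales. The 1 over the whole section was Ifng, on 0 and 2 UMIs of the adult and 20 and 23 of the aged sections. Irf1, which acts between interferon receptors and class I promoters, was counted with the further pathway genes above. Irf1 went from 10.1 and 11.5 to 14.9 and 25.0 CPM in the FT (0.90, edgeR adjusted p = 0.00324).

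Genes of the cells that read class I were rare, and most of those tested were higher in aged than in adult sections. Cd3e, a subunit of the T cell receptor complex, had 12 and 7 UMIs in the whole adult sections and 60 and 106 in the aged. Depth was unequal, at 52499064 and 51236277 UMIs in the adult and 81997167 and 106783660 in the aged sections. In the FT Cd3e had 0 UMIs in both adult sections and 22 and 38 in the aged. Taking 3 counts over the 2 adult sections as the limit that 0 allows (0.244 CPM), the aged FT at 5.68 CPM was at least 23.3-fold higher. Cd8a, the coreceptor for class I, had 0 UMIs in the adult FT and 10 and 27 in the aged FT, at least 14.4-fold higher by the same limit. The limits cover counting error only. Of the T and NK cell list, 8 of 11 tested were called higher over the whole section and 7 of 7 in the FT. Among all genes 23.8% and 18.3% were. Nkg7 (0 UMIs in the adult, 15 and 29 in the aged sections), Cd8a (3.16) and Gzmb (2.52) were the 3 largest over the whole section. In P21 vs. adult 0 of 11 were called over the whole section, beside 5.69% of all genes higher and 2.37% lower. Of the class I receptors, the 2 tested, Cd8a and Pirb (1.41), were called. Of 5 B cell genes, 0 were called in aged vs. adult over the whole section or in the FT, the 1 tested in the STR was called lower (-0.95), and Ighm (-1.02) was called lower over the whole section at P21.

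Spots that held a UMI of a T cell gene were compared with other spots of the same region and section. There were 110 to 487 such spots per section. They were 7.12% and 3.68% of spots at P21, 4.18% and 3.38% in adult and 7.42% and 13.6% in aged sections. Depth differed, with 90096877 UMIs in P21 section 1, 81997167 in aged section 1 and 106783660 in aged section 2. The remaining sections had 42422997 to 52499064. The part of depth in these shares was not tested. B2m, H2-D1 and Tap2 were above the level expected from the other spots in all 6 sections, as were 2.47% of genes. The mean log2 ratio was 0.12 ± 0.06 for B2m (SD, n = 6, exact permutation p = 0.0312), 0.17 ± 0.05 for H2-D1 (exact permutation p = 0.0312) and 0.24 ± 0.16 for Tap2 (exact permutation p = 0.0312). Adjusted over 14336 genes these were at 0.676, and no gene passed. In aged section 2, H2-D1 was at 114 CPM in such spots and 103 was expected. The other 6 genes were below 0 in 1 to 3 sections. With at least 2 T cell UMIs, or within the FT alone, no gene was above expectation in all 6 sections.

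**Figure D5:**
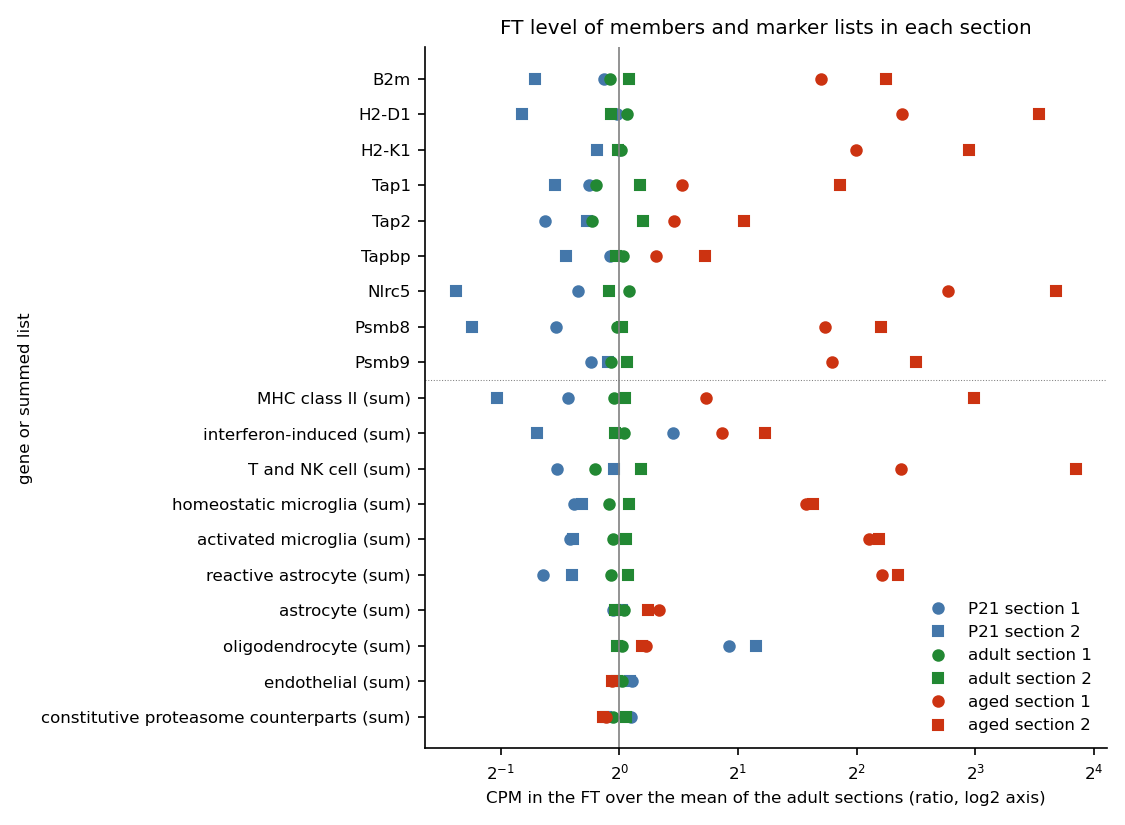
FT level of each member and of summed marker lists in every section, as a ratio over the mean of the 2 adult sections (log2 axis), with circles for section 1 and squares for section 2. Microglia and reactive astrocyte sums of the 2 aged sections lie close together. The 9 members and the MHC class II, interferon-induced and T and NK cell sums are higher in aged section 2.

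Markers of glia moved in the FT as well. Microglia, the resident macrophages that can raise class I, were followed by 12 homeostatic genes, of which 9 were called higher in the aged FT and 0 lower, with list sums of 960 and 1076 CPM in adult and 3035 and 3152 in aged sections. Over the whole section C1qb (0.72) was called higher and P2ry12 (-0.71) and Siglech (-0.63) lower. All 8 activated microglia genes were called in the aged FT, from 159 and 171 to 710 and 752 CPM in sum, and 4 of 8 over the whole section, with Cst7 (2.81), Itgax (2.44) and Lgals3 (2.17) the largest. Lgals3 was also higher at P21 (0.63), as were 5.69% of all genes. Reactive astrocyte genes were called for 3 of 3 at both scales, as Serpina3n (2.48), Gfap (0.80) and Vim (0.76) over the whole section, and their FT sum went from 724 and 802 to 3530 and 3877 CPM. Among all genes tested in the aged FT, 18.3% passed both thresholds as higher and 12.2% as lower. Over the aged whole section these shares were 23.8% and 4.68%. The parts of microglia and astrocytes in the members' rise were not tested.

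The 2 aged sections were nearly equal in microglial genes, with a ratio of section 2 over section 1 of 1.04 for the homeostatic and 1.06 for the activated list in the FT. All 9 members were higher in section 2, by 1.33 (Tapbp) to 2.51 times (Tap1). The T and NK cell sum was 2.78 times and the class II sum 4.81 times higher there. The ratio was 1.43 for class I receptors, 1.29 for interferon-induced genes, 1.11 for further class I pathway genes and 1.10 for reactive astrocyte genes. Astrocyte genes gave 0.94 and oligodendrocyte genes 0.98. With 2 sections these ratios are single values without a test. How many of all genes were higher in section 2 was not counted, so the members' count has no background.

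Astrocyte genes were called for 2 of 5 in the aged FT and for 1, Gja1 (-0.64), lower over the whole section. Endothelial genes, of a cell type known to be rich in class I, were called lower for 5 of 9 over the whole section, led by Cldn5 (-1.36), Tek (-1.13) and Cdh5 (-0.97), and in the FT 1 was higher and 5 lower, where 12.2% of all genes were lower. At P21, Kdr (0.97) was called higher. Mural genes were called lower for 2 of 5, Vtn (-0.91) and Pdgfrb (-0.81), over the whole section, and 1 of 5 was called higher in the FT. Of 4 border macrophage genes Lyve1 (1.59) was higher and Mrc1 (-0.65) lower, with none called in the FT. Among all genes, 23.8% were called higher and 4.68% lower over the aged whole section. The shares called higher were 18.3% in the aged FT and 5.69% over the whole section at P21.

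Oligodendrocyte genes were called lower for 5 of 8 over the aged whole section, led by Mag (-1.09) and Cnp (-0.91), and 1 of 8 was called, higher, in the FT, with FT list sums of 41970 and 40686 CPM in adult and 48326 and 47261 in aged sections. At P21, 7 of 8 were called higher, among them Cldn11 (1.70) and Mog (1.29). Of the pan-neuronal genes Syt1 (0.88) was higher over the whole aged section and 3 of 5 were lower in the FT. Erythrocyte genes were called higher at P21 for 4 of 4, led by Hbb-bt (3.02), Hbb-bs (2.93) and Alas2 (2.84), and for 0 of 4 in the aged whole section. In the aged FT 2 of 4 were called higher (median 0.78), and the list sum there was 222 and 322 CPM, higher in section 2 by 1.45 times, beside 278 and 144 CPM in the adult FT, so that the sums overlapped. The part of blood in the members' FT values was not tested. Beside the counts of this paragraph, 23.8% of all genes were called higher and 4.68% lower over the aged whole section. In the aged FT 18.3% were higher and 12.2% lower, and over the whole section at P21 5.69% were higher.

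Across 36 sums, 1 per section and region, the 9 genes were correlated, Tapbp least. The correlation with their mean profile was 0.96 for H2-D1, 0.95 for B2m, 0.94 for Psmb8, 0.93 for Psmb9, 0.92 for H2-K1, 0.90 for Nlrc5, 0.88 for Tap2, 0.85 for Tap1 and 0.62 for Tapbp. Between pairs it ran from 0.37 for H2-K1 and Tapbp to 0.95 for B2m and H2-D1. The 36 sums come from 6 libraries and share their depth, so these values are descriptions. Of other genes with a mean of at least 0.5 CPM, the 10 closest to the mean profile were Tspo (0.95), Ctsd (0.94), Itgb5 (0.93), Csf1 (0.93), Fcer1g (0.92), Fcgr3 (0.92), Ctss (0.92), Gpr65 (0.92), Cflar (0.92) and C3 (0.92). Ctsd, a lysosomal protease, was at 183 and 183 CPM in the adult FT and 821 and 805 in the aged, and C3, the central complement component, at 1.95 and 0.975, then 51.3 and 79.6.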

How the data were processed

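Counts were deposited as UMIs per gene and spot, without normalization. Per the file headers the authors made them with Space Ranger, version 2.0.0 for P21 and adult and 3.1.1 for aged sections, although the submitters' notes name 2.1.0 for all, with mm10. The deposited Moran's I score comes from the same software. Depth ranged from 42422997 to 106783660 UMIs per section. Spots with under 250 genes or 500 UMIs were removed. Regions were rebuilt by Leiden clustering (leidenalg 0.10.2, resolution 0.5, 3000 variable genes, 10 components, 20 neighbours) without 210 genes, members and lists included except the oligodendrocyte list, and named by marker panels, of which the FT panel is that list. Sums of UMIs, 1 for each section and region, were tested with edgeR 4.0.16 (TMM, filterByExpr, glmQLFit, glmQLFTest), all 6 sections in 1 fit with age. The region contrast held sections as a block. Within-section ratios used a pseudocount of 1 CPM and exact sign-flip permutation; these p-values are given raw and adjusted over 14336 genes, in place of an adjustment over the 9 genes alone. Code was tested on simulated data. Displayed CPM use plain totals. Named genes are all members, the 3 called genes of each list with the largest whole-section change, and the 10 genes most like the members, besides some list genes chosen after their values were seen. Some genes that this rule names are not reported here. The 9 genes and all 18 lists were chosen with earlier results of these data known. Replicates are labelled biological, and the edgeR p-values between ages measure the spread between 2 sections per age. Those of the region contrast measure how region differences vary between sections. The sign-flip p-values run over all 6 sections, whatever their age. Images and the authors' own clusterings were not used here.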

Additional observations from a re-analysis of the deposited data

Results flagged for a closer look

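The change in aged vs. adult differed between the FT and the mean of the other 5 regions for all 9 genes, by edgeR with each section as a block. The FT exceeded the other regions by 1.39 on the log2 scale for B2m, 1.81 for H2-D1, 1.03 for H2-K1, 0.93 for Tap1, 0.52 for Tap2, 0.79 for Tapbp, 1.67 for Nlrc5, 1.06 for Psmb8 and 1.53 for Psmb9. The calls for H2-K1, Nlrc5, Tap1 and Tap2 were lost without adult section 1 (0.92, 0.52, 0.52 and 0.31) and without aged section 2 (0.50, 1.59, 0.47 and 0.30), that for Nlrc5 also without adult section 2 and that for Tap1 without either P21 section. Aged sections were made by another method and showed sharper FT markers, and the part of that in these differences was not tested. The 8 oligodendrocyte genes gave 0.54 to 1.05 in the same contrast.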

How the results depend on the processing

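Over the whole section, 4 genes were called in aged vs. adult under each alternative with 3 exceptions. These were plain CPM (5, with B2m), adjusted p alone (7) and the spot detection filter, under which Nlrc5 was not tested. In P21 vs. adult the count of 1 became 4 with adjusted p alone and 0 with the spot detection filter, which tests no Psmb9, and 0 to 2 without 1 section. The P21 region tests called moved from 1 to 2 with plain CPM, 3 with no filter, 3 with adjusted p alone and 0 with DESeq2, and 0 to 3 without 1 section. The aged region tests called, 27, ranged from 22 to 31 over all alternatives. The aged interaction count of 6 fell to 1 without the FT and ranged from 4 to 9 without 1 section. The FT contrast count of 9 ranged from 5 to 9 without 1 section and was 8 with interior spots. Genes above 0 in the FT in all sections, 7, were 3 with interior spots and 7 to 9 without 1 section, and genes above expectation in T cell spots, 3, were 0 with 2 T cell UMIs, 0 within the FT and 3 to 5 without 1 section. Causes were not tested. Without 1 section, uncalled whole-section log2 fold changes changed sign for Nlrc5 and Tap1 in P21 vs. adult and for Tap1 and Tap2 in aged vs. adult. The ranges were -0.257 to 0.225 and -0.177 to 0.0374 at P21 and -0.170 to 0.350 and -0.0236 to 0.277 in aged sections.

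Replicate numbers did not pair the sections, since deviations of same-numbered sections correlated at 0.02, -0.04 and -0.17. With the replicate block the counts stayed at 4 and 1 over the whole section and 27 and 1 over the regions. Nlrc5 had the fewest UMIs, and depth limits its regional values. Plain CPM moved the median of all genes in the aged whole section from 0.04 to 0.15. Called genes without normalization factors numbered 4778 higher and 483 lower, against 4301 and 847. With the spot detection filter 681 and 323 of 11315 genes were called, and in the FT 1646 genes were higher, against 2533. The genes higher in the FT contrast, 1970, numbered 1085 without adult section 1 and 1278 without adult section 2. In P21 vs. adult 1031 genes were higher and 429 lower over the whole section, against 380 and 199 with the spot detection filter, 641 and 343 without P21 section 1 and 637 and 312 without P21 section 2. In the FT 757 were higher and 542 lower at P21, and 631 and 760 with plain CPM. In the P21 FT contrast 364 genes were higher and 243 lower, and 228 and 479 with plain CPM.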
